A study of Mus musculus with 8 samples.

Results

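Chaperones of the heat shock and J-domain families were taken as all genes whose symbol starts with Hspa, Hspb, Hspd, Hspe, Hsph, Hsp90, Dnaja, Dnajb or Dnajc. The RNA tables held 63 such genes of 11315, and the DNA hydroxymethylation tables held sites in 74 of them, the other 11 having no RNA value. Their promoters, exons and introns held 1944 of the 1497075 listed sites. Both Hspbp1, an exchange factor for Hsp70, and Hspbap1 belong here by symbol only, and Hspb11 encodes an intraflagellar transport protein (IFT25) rather than a small heat shock protein.

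The libraries came from brains of C57BL/6 mice at postnatal day 60 and compared adult oligodendrocyte progenitor cells (aOPC) with adult oligodendrocytes (aOL), with no other treatment. The aOPC were sorted by flow cytometry for a histone-tagged green fluorescent protein driven by the Pdgfra locus (Pdgfra-H2BEGFP), and the aOL for EGFP under the Plp promoter (Plp-EGFP), so that population and reporter line cannot be told apart. DNA and RNA were extracted from the same cell pellet, each group had 2 libraries per assay (replicates 2 and 3), and the first replicate of each group was not analysed here. The RNA labels of the aOL call them pre-myelinating in the title and myelinating in the protocol, and the tissue label of the aOL hydroxymethylation libraries names the PDGFRa reporter, so those libraries were grouped by title. Nothing in the labels says how many mice a library holds, so p-values measure only the spread between these libraries.

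Hsp70 proteins bind unfolded stretches of other proteins and release them as they hydrolyse ATP. J-domain proteins (Dnaja, Dnajb and Dnajc) bring clients to Hsp70 and speed its ATPase, Hsp110 proteins exchange its nucleotide, Hsp90 finishes the folding of kinases and receptors, and small heat shock proteins hold aggregating proteins without ATP. The cytosol, the endoplasmic reticulum (ER) and the mitochondria each have their own set. In a myelinating cell the ER set handles the large load of membrane protein that myelin needs. Heat shock factor raises many of these genes under stress, through copies of the sequence nGAAn, while an ER stress element serves the ER set.

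RNA levels were the authors' quantile-normalized values, here read as log2 units, and carry no read depth. Marker genes bore on the labels before any chaperone was compared. The progenitor receptor gene Pdgfra was at 7.54 and 5.47 in the aOPC libraries and at 4.98 and 1.63 in the aOL libraries. Of the 10 tested genes of the progenitor list 6 were lower and 4 higher in mean in aOL, with a median difference of −0.46 and no call. That list also holds Olig1 (−0.40), Olig2 (0.61) and Sox10 (0.35), which mark the whole lineage. The 12 oligodendrocyte markers had medians of 17.77 and 17.20 in aOPC and of 17.54 and 17.57 in aOL, so oligodendrocyte RNA was abundant in all 4. The 20 immediate early genes, which rise when tissue is dissociated, had a median of 12.18 in aOPC replicate 2, against 8.78 in aOPC replicate 3, 7.88 in aOL replicate 2 and 8.21 in aOL replicate 3. The aOPC libraries also differed more from each other (SD of the replicate difference 0.51 over the 63 chaperone genes) than the aOL libraries did (SD 0.21). Reduced Representation Hydroxymethylation Profiling (RRHP) counts reads at CCGG sites whose cytosine carried 5-hydroxymethylcytosine (5hmC), and its libraries held 7113237 to 27057859 counts. The lowest total belonged to aOPC replicate 2, in which 5.74% of counts fell in CpG islands, against 2.38% to 3.32% in the other 3.

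**Figure D1:**
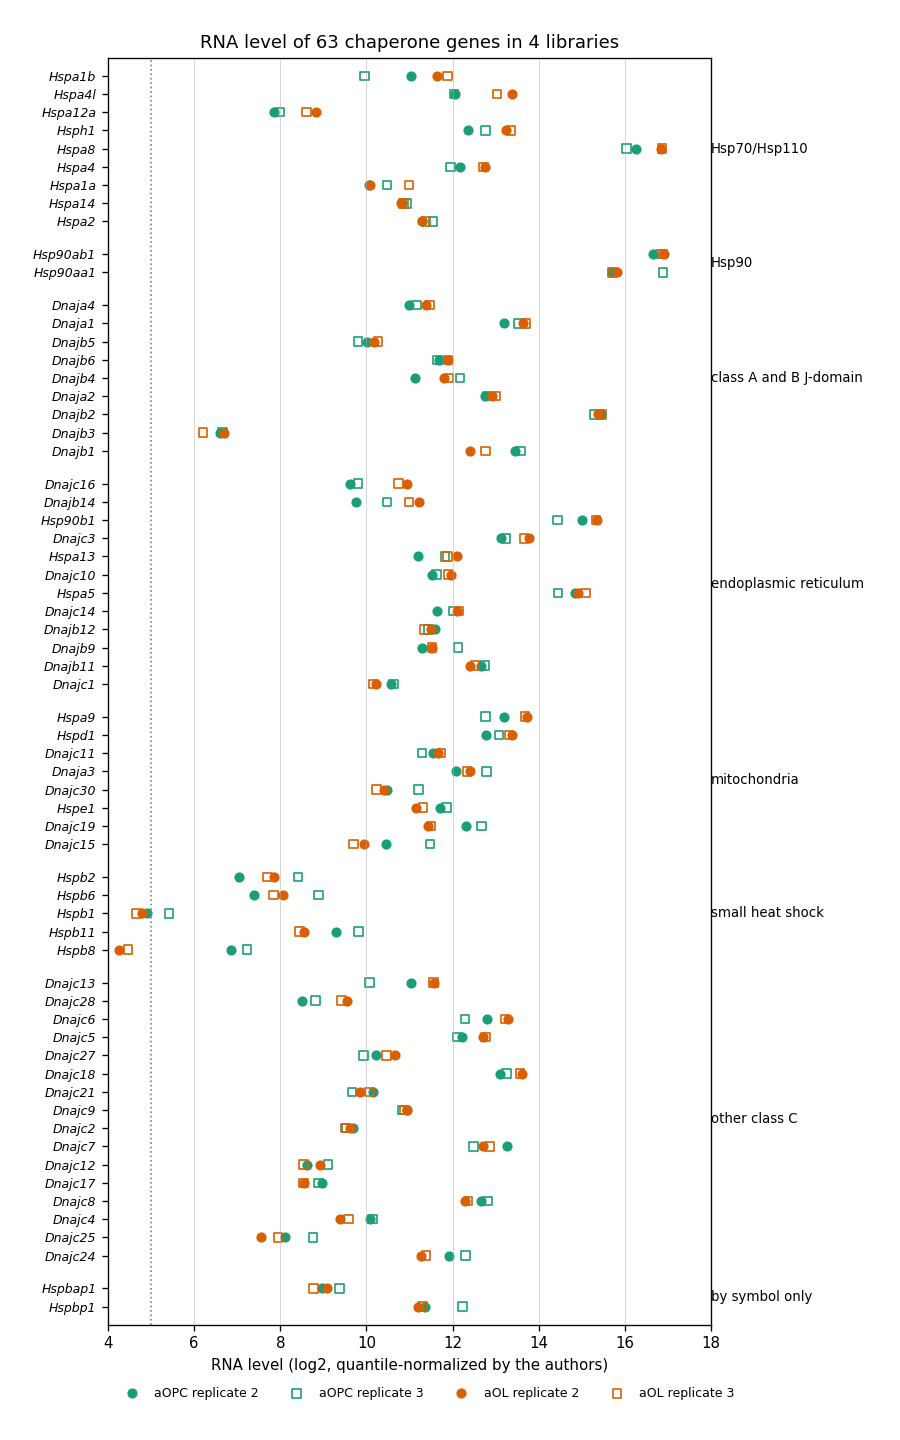
RNA level (x axis, log2) of 63 chaperone genes, grouped by role, in aOPC (green) and aOL (orange). Circles are replicate 2 and open squares replicate 3. The dotted line is the filter at 5. The 2 aOL values lie close together for most genes, and Hspb8 shows the widest gap between the groups.

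No chaperone gene passed the RNA test between aOL and aOPC (limma, p under 0.01 with Benjamini-Hochberg adjusted p under 0.05), where 0.0808% of the 11133 genes tested did (0.00898% higher and 0.0719% lower). Of 63 genes, 62 passed the filter of log2 5 in at least 2 libraries, Hspb1 being the exception. The smallest adjusted p was 0.074, for Hspb8. At an unadjusted p under 0.05 there were 21 chaperone genes, 13 with a higher mean in aOL and 8 with a lower one, beside 12.1% and 12% of all genes, 24% in all. Both aOL values lay above both aOPC values for 29 of the 62 genes and below them for 15, beside 31.9% and 29.9% of all genes, 61.8% in all. The median log2 difference (aOL minus aOPC) was 0.11 over the chaperones and 0.02 over all genes. These counts depended on single libraries. Without aOPC replicate 2, limma called 9 chaperones higher and 9 lower in aOL, beside 36.3% of all genes, and without aOPC replicate 3 it called 5 higher and 2 lower, beside 21.3%. Each of those fits leaves aOPC with 1 library, whose spread is taken from the aOL pair. Without aOL replicate 2 or without aOL replicate 3 no chaperone was called, beside 0.905% and 0.896% of all genes.

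Among the genes of the symbol rule, the most abundant RNA per kilobase of exon was that of Hsp90ab1, the constitutive cytosolic Hsp90. Its mean was 15.15 in aOPC and 15.31 in aOL (log2 level minus log2 exon kilobases). It was followed over the 4 libraries by Hspa8, the constitutive Hsp70, by Hsp90aa1, the inducible Hsp90, and by Dnajb2, a J-domain protein of the cytosol and ER surface known for a neuronal form. The ER pair Hsp90b1 (GRP94) and Hspa5 (BiP) came next. The lowest places were held by Hspb8, at 6.08 in aOPC and 3.39 in aOL, and by Hspb1. The small heat shock gene Cryab lies outside the symbol rule. Without scaling by length it was at 17.62 and 17.59 in aOPC and at 17.30 and 17.34 in aOL, above Hsp90ab1 in every library.

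Among the cytosolic Hsp70 and Hsp110 genes, 7 of 9 had a higher mean in aOL, beside 51.3% of all genes, and 6 of the 9 had both aOL values above both aOPC values, beside 31.9%. Their median difference was 0.70. None passed the test. Hspa8, which also uncoats clathrin vesicles, was at 16.26 and 16.04 in aOPC and at 16.83 and 16.86 in aOL, a difference of 0.70 (SE 0.20, adjusted p = 0.17). The groups did not overlap. Its disassembly partner Dnajc6 (auxilin) was at 12.80 and 12.28 in aOPC and at 13.29 and 13.22 in aOL, a difference of 0.71 (SE 0.26, adjusted p = 0.21). The aOPC pair spread wider than the aOL pair, and the groups again did not overlap.

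The 3 Hsp110-type genes, whose products exchange nucleotide on Hsp70, each had both aOL values above both aOPC values. Hspa4l was at 12.05 and 12.03 in aOPC and at 13.39 and 13.04 in aOL, a difference of 1.17 (SE 0.22, adjusted p = 0.13). Hspa4 was at 12.18 and 11.96 in aOPC and at 12.75 and 12.72 in aOL, a difference of 0.66 (SE 0.20, adjusted p = 0.18). Hsph1 was at 12.36 and 12.76 in aOPC and at 13.24 and 13.35 in aOL, a difference of 0.73 (SE 0.24, adjusted p = 0.19). None of the 3 passed the test. Hspa12a, a distant Hsp70 relative, was lower in level, at 7.85 and 7.98 in aOPC against 8.83 and 8.61 in aOL (difference 0.81, SE 0.20, adjusted p = 0.15).

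The inducible pair Hspa1a and Hspa1b are near-identical copies, so reads may have been split between them in counting, and Hspa1a also shares 19.0% of its exon bases with Gm20481 on the opposite strand. Hspa1b was at 11.05 and 9.96 in aOPC and at 11.63 and 11.89 in aOL, a difference of 1.26 (SE 0.43, adjusted p = 0.19). Hspa1a was at 10.06 and 10.48 in aOPC and at 10.08 and 10.99 in aOL, and its groups overlapped. The testis-enriched Hspa2 (difference −0.08, SE 0.21) and the ribosome-bound Hspa14 (difference −0.06, SE 0.19) overlapped between groups, with 95% intervals of −0.64 to 0.48 and −0.58 to 0.47.

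Neither cytosolic Hsp90 passed the test. Hsp90ab1 was at 16.64 and 16.83 in aOPC and at 16.90 and 16.89 in aOL, a difference of 0.16 (SE 0.20, 95% interval −0.37 to 0.69). Hsp90aa1 was at 15.69 and 16.89 in aOPC and at 15.83 and 15.71 in aOL, so that aOPC replicate 3 alone stood apart (difference −0.52, SE 0.45). Without aOPC replicate 3 the difference of Hsp90aa1 was 0.07.

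Of the 9 class A and B J-domain genes of the cytosol and nucleus, 7 had a higher mean in aOL, with a median difference of 0.20. The exception in size was Dnajb1 (Hsp40), the main stress-inducible partner of Hsp70, at 13.46 and 13.58 in aOPC and at 12.41 and 12.77 in aOL. Both aOL values lay below both aOPC values, a difference of −0.93 (SE 0.23, adjusted p = 0.15). Dnaja1, a farnesylated partner of Hsp70, was at 13.20 and 13.52 in aOPC and at 13.65 and 13.70 in aOL (difference 0.32, SE 0.22). Dnajb6, which holds back polyglutamine aggregation, was at 11.68 and 11.66 in aOPC and at 11.89 and 11.89 in aOL (difference 0.22, SE 0.18). Dnajb2 was at 15.45 and 15.29 in aOPC and at 15.38 and 15.46 in aOL, with overlapping groups. Neither Dnaja1 nor Dnajb6 overlapped between groups, and neither passed the test.

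**Figure D2:**
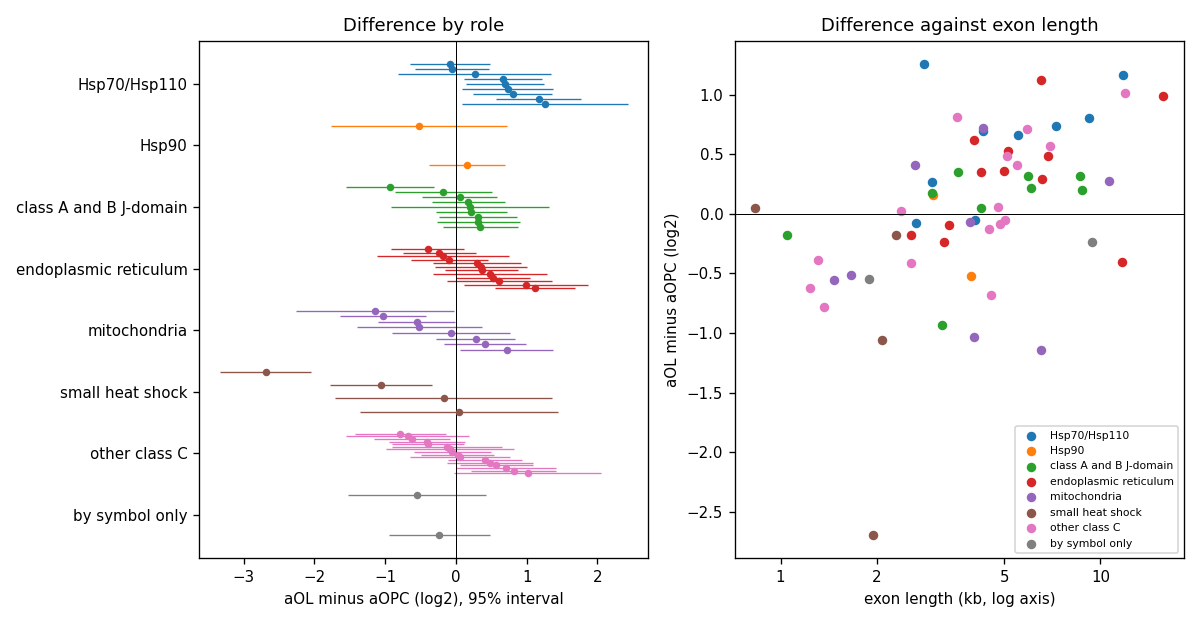
Left, difference in RNA (aOL minus aOPC, log2) of 62 chaperone genes by role, with 95% intervals from limma. Right, the same difference against exon length on a log axis. Longer genes lie higher, with a median difference of 0.36 in the 31 longer genes and −0.17 in the 31 shorter ones.

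In the ER set 8 of 12 genes were higher in mean in aOL, beside 51.3% of all genes, with a median difference of 0.36, and the same 8 had both aOL values above both aOPC values, beside 31.9% of all genes. None passed the test. Dnajc16, a membrane-bound J-domain protein, was at 9.61 and 9.81 in aOPC and at 10.93 and 10.74 in aOL, a difference of 1.13 (SE 0.21, adjusted p = 0.13). Dnajb14, which takes part in ER-associated degradation, was at 9.76 and 10.47 in aOPC and at 11.23 and 10.99 in aOL, a difference of 0.99 (SE 0.32, adjusted p = 0.19). Dnajc3 (p58IPK), a co-chaperone of BiP that also restrains the kinase PERK, was at 13.13 and 13.24 in aOPC and at 13.77 and 13.66 in aOL, a difference of 0.53 (SE 0.19, adjusted p = 0.21). In these 3 genes each aOL value exceeded each aOPC value.

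Hsp90b1 was at 15.01 and 14.44 in aOPC and at 15.36 and 15.33 in aOL (difference 0.62, SE 0.27, adjusted p = 0.26). Hspa5 was at 14.85 and 14.45 in aOPC and at 14.92 and 15.09 in aOL (difference 0.35, SE 0.24, adjusted p = 0.41). Hspa13, an Hsp70 of the secretory pathway, was at 11.19 and 11.83 in aOPC and at 12.10 and 11.88 in aOL (difference 0.48, SE 0.30). The aOL values of these 3 genes also lay above the aOPC values. Of the J-domain partners of BiP, Dnajb9 (ERdj4) was at 11.29 and 12.12 in aOPC against 11.53 and 11.52 in aOL, with overlap, while Dnajb11 (ERdj3) was at 12.65 and 12.74 in aOPC and at 12.41 and 12.52 in aOL (difference −0.23, SE 0.19), without overlap.

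The promoters of Hspa5, Hsp90b1 and Dnajc3 were the 3 chaperone promoters with an ER stress element, searched on both strands as CCAAT followed after 9 bases by CCACG, in the 300 bases from 250 before to 50 after the RefSeq start (GRCm38.p6). These 3 were 3.90% of the 77 windows that matched 60 of the 74 chaperone genes, against 0.119% of all 32851 windows. The element is known to serve the ER set, so its higher share there is a description and no test. The 14 genes without a window, among them Hspa8, Hsp90aa1 and Hsp90ab1, were not searched. The 250 bases before each start are shown because these genes share the element and all had both aOL values above both aOPC values. Capitals mark the element, which begins at −65 relative to the start in Hspa5, at −105 in Dnajc3, and at −212 and −107 in Hsp90b1, the second copy being on the other strand.
Hspa5, chr2:34771840-34772089, plus strand: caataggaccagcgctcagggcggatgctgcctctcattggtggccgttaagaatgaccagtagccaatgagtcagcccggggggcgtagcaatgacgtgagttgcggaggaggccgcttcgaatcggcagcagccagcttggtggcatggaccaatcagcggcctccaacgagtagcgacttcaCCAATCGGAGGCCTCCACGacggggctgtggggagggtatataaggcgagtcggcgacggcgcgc
Hsp90b1, chr10:86705445-86705694, minus strand: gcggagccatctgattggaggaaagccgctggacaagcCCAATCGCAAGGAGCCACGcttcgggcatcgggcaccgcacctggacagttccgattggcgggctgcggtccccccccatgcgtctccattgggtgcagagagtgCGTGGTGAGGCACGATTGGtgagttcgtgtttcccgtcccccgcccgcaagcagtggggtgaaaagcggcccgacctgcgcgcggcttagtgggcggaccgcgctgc
Dnajc3, chr14:118937682-118937931, plus strand: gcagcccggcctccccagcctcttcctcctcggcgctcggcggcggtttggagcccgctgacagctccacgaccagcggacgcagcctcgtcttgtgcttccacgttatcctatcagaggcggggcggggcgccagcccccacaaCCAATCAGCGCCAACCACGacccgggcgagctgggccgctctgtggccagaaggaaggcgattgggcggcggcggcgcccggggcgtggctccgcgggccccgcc

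Of the 8 mitochondrial genes, 5 had a lower mean in aOL and the median difference was −0.29. Dnajc19 and Dnajc15, J-domain proteins of the import motor, lay lower in both aOL libraries. Dnajc19 was at 12.31 and 12.67 in aOPC and at 11.42 and 11.50 in aOL, a difference of −1.03 (SE 0.22, adjusted p = 0.14). Dnajc15 was at 10.46 and 11.48 in aOPC and at 9.95 and 9.70 in aOL, a difference of −1.14 (SE 0.41, adjusted p = 0.20). Hspa9 (mortalin), the Hsp70 that powers this motor, differed in the other direction, at 13.21 and 12.76 in aOPC and at 13.73 and 13.68 in aOL (difference 0.72, SE 0.24, adjusted p = 0.19). Its J-domain partner Dnaja3 overlapped between groups, at 12.09 and 12.79 in aOPC against 12.40 and 12.34 in aOL. None of the 4 passed the test.

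Hspd1 and Hspe1, the barrel and the lid of a folding chamber in the matrix, are transcribed head to head from a shared promoter, and their RNA differed in opposite directions. Hspd1 was at 12.78 and 13.08 in aOPC and at 13.38 and 13.31 in aOL (difference 0.41, SE 0.21, adjusted p = 0.31). Hspe1 was at 11.71 and 11.86 in aOPC and at 11.15 and 11.32 in aOL (difference −0.55, SE 0.20, adjusted p = 0.20). Neither overlapped between groups and neither passed the test. The exons of Hspe1 sum to 1.47 kb and those of Hspd1 to 2.64 kb, and 112 bases of exon are shared on opposite strands.

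The shared promoter held the heat shock element in 3 alternating units, searched as GAANNTTC followed after 2 bases by GAA, or TTCNNGAA followed after 2 bases by TTC, which covers both strands. This element was in 6 of the 77 chaperone windows (7.79%), those of Hspd1, Hspe1, Dnajb6 and Hsph1, against 0.603% of all windows. Some of these windows overlap and hold the same match. By gene the share was 4 of 60 (6.67%), against 0.662% of all genes. The 2-unit form, which the longer one contains, was in 23.4% of chaperone windows against 15.1%. Heat shock factor acts through this sequence at many of these genes, so the shares are a description and no test. In Hspe1 a pair of matches overlap, starting at −89 and −84. Sequences of 3 of these promoters are shown because they carry the element, with the match in capitals, for Hsph1 as 30 bases because its match lies after the start, at base 37.
Hspe1, chr1:55087898-55088147, plus strand: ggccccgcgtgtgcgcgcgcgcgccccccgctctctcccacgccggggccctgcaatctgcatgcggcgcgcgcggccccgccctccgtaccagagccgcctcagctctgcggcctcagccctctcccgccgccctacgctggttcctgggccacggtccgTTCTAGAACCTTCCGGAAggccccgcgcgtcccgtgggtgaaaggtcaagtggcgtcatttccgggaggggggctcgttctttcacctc
Dnajb6, chr5:29735648-29735897, plus strand: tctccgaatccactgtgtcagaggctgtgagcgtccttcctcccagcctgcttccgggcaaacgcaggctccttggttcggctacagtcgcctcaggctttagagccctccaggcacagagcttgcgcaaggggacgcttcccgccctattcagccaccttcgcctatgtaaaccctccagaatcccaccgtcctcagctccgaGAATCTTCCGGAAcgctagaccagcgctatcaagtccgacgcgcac
Hsph1, chr5:149636287-149636316, minus strand: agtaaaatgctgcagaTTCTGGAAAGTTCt

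Of the 4 tested genes with the small heat shock symbols 3 were lower in mean in aOL, with a median difference of −0.61. They include Hspb11, which is no small heat shock protein. Hspb6 and Hspb2 differed by −0.17 (SE 0.56) and 0.05 (SE 0.51). Hspb8, which acts with the co-chaperone Bag3 in selective autophagy, was at 6.86 and 7.23 in aOPC and at 4.25 and 4.46 in aOL. Both aOL values lay below the filter of 5 and both aOPC values above it, so that it was tested only through aOPC, and the difference of −2.69 (SE 0.24) had an adjusted p of 0.074. Hspb1 (Hsp25), at 4.89 and 5.42 in aOPC against 4.80 and 4.66 in aOL, was not tested. Hspb6 and Hspb2 overlapped between groups, each with aOPC replicate 2 lowest and aOPC replicate 3 highest, and 30.2% of the exon bases of Hspb2 lie over Cryab on the opposite strand. Hspb11, the transport protein, was at 9.29 and 9.82 in aOPC and at 8.56 and 8.44 in aOL (difference −1.05, SE 0.26, adjusted p = 0.15). Beside Hspb8, the 8 astrocyte markers had medians of 10.13 and 9.28 in aOPC and of 8.74 and 9.12 in aOL, with 6 of 8 lower in mean in aOL. Of 8 endothelial and mural markers only 3 could be tested, all higher in mean in aOL. Cldn5, at 0.33 and 1.80 in aOPC and at 5.92 and 7.13 in aOL, was tested only through aOL. Acta2 and Vtn overlapped between groups. The 9 tested microglial markers had a median difference of −0.51 and the 4 neuronal ones of −0.47. The part of these cells in the chaperone values was not tested. In sorted bulk RNA, fewer cells of a type and less RNA per cell cannot be told apart.

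The remaining 16 class C J-domain genes split evenly, 8 higher and 8 lower in mean in aOL, with a median difference of −0.01. Dnajc5 (cysteine string protein), which guards vesicle fusion proteins, was at 12.21 and 12.11 in aOPC and at 12.70 and 12.77 in aOL, a difference of 0.57 (SE 0.19, adjusted p = 0.19). Dnajc28 was at 8.51 and 8.82 in aOPC and at 9.54 and 9.42 in aOL (difference 0.82, SE 0.22, adjusted p = 0.16). In both genes the aOL pair lay above the aOPC pair. Dnajc24, which acts in diphthamide synthesis, was at 11.91 and 12.30 in aOPC and at 11.26 and 11.38 in aOL (difference −0.78, SE 0.23, adjusted p = 0.17). Dnajc4 was at 10.09 and 10.14 in aOPC and at 9.39 and 9.59 in aOL (difference −0.62, SE 0.20, adjusted p = 0.18). These 2 genes lay lower in both aOL libraries. Dnajc2, a chaperone at the ribosome exit, overlapped between groups at 9.69 and 9.52 in aOPC against 9.61 and 9.50 in aOL.

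Exon length moved with these differences. Over the 62 genes the Spearman correlation between exon length and the difference was 0.54, given as a description since the genes share libraries, and over 10750 genes of all kinds with a length it was 0.44. The 31 chaperones with the shorter exons had a median difference of −0.17, with 11 of 31 higher in mean in aOL, and the 31 longer ones 0.36, with 24 of 31. Of the genes above, Hspe1, Dnajc24, Dnajc4, Hspb8 and Hspb11 have exons of 1.24 to 2.07 kb, while Hspa4l (11.8 kb) and Dnajb14 (15.7 kb) are among the longest. Others went against this, with Dnajc15 (6.51 kb) at −1.14 and Hspa1b (2.80 kb) at 1.26. The part of length in the values of single genes was not tested.

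Lists of genes that work with the chaperones gave no call, and the immediate early genes, given last, gave 1. The counts of all these lists stand beside 51.3% of all genes with a higher mean in aOL. At an unadjusted p under 0.05 they stand beside 12.1% higher and 12% lower. The 13 tested subunits of the TRiC chamber and its partner prefoldin all had a lower mean in aOL, with a median of −0.34 and 3 of 13 at an unadjusted p under 0.05. Those 3 were prefoldin subunits, Pfdn1 (−0.96), Pfdn5 (−1.22) and Pfdn6 (−0.72). Of 13 Hsp90 partners 6 were higher in mean, with a median of −0.01, and Stip1, which hands clients from Hsp70 to Hsp90, had 1.04 (SE 0.36, adjusted p = 0.20). Of 10 Hsp70 partners 5 were higher, among them Hyou1, the ER nucleotide exchanger, with 0.76 (SE 0.18, adjusted p = 0.15). The 4 tested heat shock factor genes and regulators were all lower in mean, and Hsf1, at 11.82 and 11.27 in aOPC and at 11.28 and 11.39 in aOL, overlapped between groups (difference −0.21, SE 0.27). Of 18 ER stress genes 13 were higher, including the sensors Ern1 (1.21), Eif2ak3 (1.08) and Atf6 (1.45), each at an adjusted p of 0.13 to 0.15. Of 6 chaperone genes outside the symbol rule 3 were higher, among them that of the ER J-domain protein Sec63 at 0.73. The collagen chaperone Serpinh1, which is neither a J-domain nor a small heat shock protein, had −1.45. Among the 20 immediate early genes 19 were lower, with a median of −2.17 and 1 call, Egr3, at 5.08 and 5.18 in aOPC against 1.57 and 1.63 in aOL (difference −3.53, SE 0.19, adjusted p = 0.047), which passed the filter of 5 only through its aOPC values.

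RRHP reads at the 1944 chaperone sites summed to 1273 and 1201 reads scaled to 1000000 per library (CPM) in aOPC and to 1230 and 1189 in aOL. All 1944 sites lay on a CCGG of GRCm38, at 1431 positions, since a position can be listed on either strand. Promoters held 967 of them, exons 575 and introns 1063, and 631 fell in both a promoter and a gene body. Signal was lowest around the start of the gene and higher in the body. In the first 500 bases after the start, where 87.2% of 439 sites lay in CpG islands, the mean per site was 0.286 and 0.105 CPM in aOPC against 0.0956 and 0.132 CPM in aOL. Between 2000 and 5000 bases after it, the mean was 1.31 and 1.35 CPM in aOPC against 1.46 and 1.37 CPM in aOL. The same held for all genes, whose promoter sites in islands had means of 0.0903 to 0.288 CPM and whose gene-body sites outside promoters and islands had 0.829 to 0.954 CPM. In both sets the highest island value belonged to aOPC replicate 2.

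**Figure D3:**
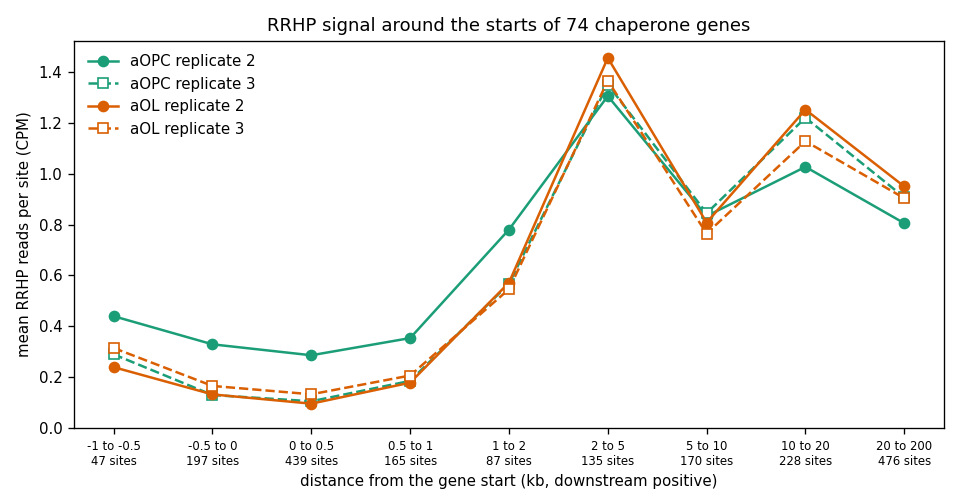
Mean RRHP reads per listed site (y axis, CPM) by distance from the gene start (x axis, kb) for 74 chaperone genes in 4 libraries. The 4 lines are lowest in the first 0.5 kb after the start, where aOPC replicate 2 lies above the other 3, and they come together beyond 2 kb.

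Gene bodies (exon and intron sites summed) were testable for 72 of the 74 genes, Dnajb3 and Hspa5 having too few reads. The edgeR quasi-likelihood test called 1 of them, beside 0.849% of all gene bodies (0.162% higher and 0.687% lower). The CPM of the groups did not overlap for 10 higher and 15 lower chaperone bodies, beside 21% and 17.8% of all. Dnaja2, a class A partner of Hsp70, had 54 and 100 counts in aOPC against 12 and 45 in aOL, or 7.59 and 5.84 CPM against 0.754 and 1.66 CPM. Both aOL values lay below both aOPC values, with a log2 difference of −2.41 (SE 0.46, adjusted p = 0.039). Of these reads, 1 intron site held 28 and 62 counts in aOPC and none in aOL. Its other sites held 3.66 and 2.22 CPM in aOPC against 0.754 and 1.66 CPM in aOL, still lower in both aOL libraries, and were not tested alone, the site left out having been chosen by its own call. The call was also lost without aOL replicate 2, where the adjusted p was 0.45, beside 0.463% of all bodies called. The RNA of Dnaja2 was at 12.75 and 12.81 in aOPC and at 12.90 and 13.002 in aOL, a difference of 0.18 (SE 0.19).

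The bodies with the most reads did not pass the test. Dnajc6 had 104 and 127 CPM in aOPC against 138 and 117 CPM in aOL, over 96 sites, the most of any chaperone gene. Dnajc3 had 74.4 and 73.2 CPM in aOPC against 83.5 and 71.9 CPM in aOL over 37 sites. Hspa12a had 69.6 and 63.5 CPM in aOPC against 56.3 and 61.0 CPM in aOL over 77 sites. Dnajc6 and Dnajc3 overlapped between groups, and Hspa12a differed by −0.19 on the log2 scale (SE 0.12, adjusted p = 0.76). At an unadjusted p under 0.05 there were 3 bodies higher (Hsp90ab1, Dnajc10 and Hspb6) and 2 lower (Dnaja2 and Dnajc12), beside 2.82% and 4.48% of all bodies, 7.3% in all. The largest of these by reads was Hsp90ab1, with 19.7 and 17.7 CPM in aOPC against 25.3 and 24.5 CPM in aOL (log2 difference 0.41, SE 0.14, adjusted p = 0.48). Without its 2 called sites the body had 19.7 and 17.6 CPM in aOPC against 16.8 and 16.7 CPM in aOL, a description only, since leaving out sites called higher lowers the aOL value by construction.

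**Figure D4:**
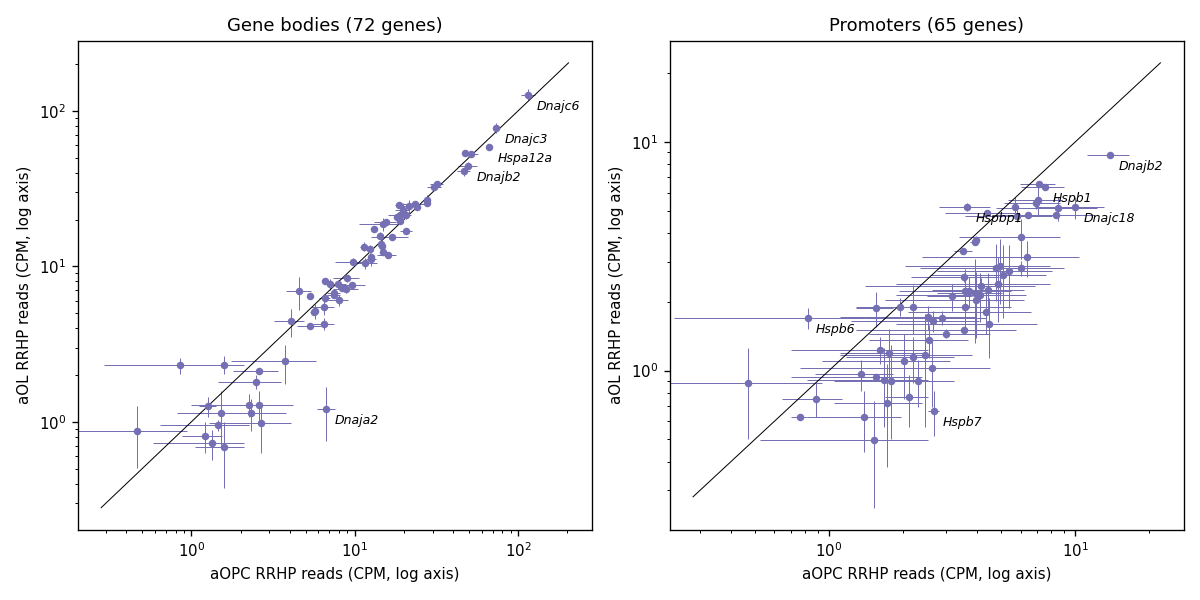
RRHP reads (CPM, log axes) in aOPC (x) and aOL (y) summed over gene bodies (left, 72 genes) and promoters (right, 65 genes). Points are means and bars span the 2 libraries. Bodies follow the line of equality with Dnaja2 below it, and promoters spread wide in aOPC.

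Promoters were testable for 65 of the 70 genes with a promoter site, and edgeR called none, beside 0.768% of all promoters (0.418% higher and 0.35% lower), and DESeq2 also called 0. At an unadjusted p under 0.05 there were 2 higher and 1 lower, beside 4.18% and 1.79%, 5.97% in all. The CPM of the groups did not overlap for 2 higher and 11 lower chaperone promoters, beside 6.8% and 20.7%. Dnajb4, Dnajc27, Hsp90b1, Hspa12b and Hspb8 had too few reads, and Dnajb13, Dnajb6, Dnajc17 and Hspd1 had no promoter site listed. The highest mean CPM values were those of Dnajb2, with 16.6 and 11.2 CPM in aOPC against 8.54 and 9.02 CPM in aOL, of Dnajc18, a membrane J-domain protein, with 13.1 and 6.89 against 4.58 and 5.77 CPM, and of Hspb1, with 8.997 and 6.02 against 6.34 and 6.32 CPM. The median difference of all promoters was −0.60 (log2) with library totals alone and −0.01 with TMM scaling, whose promoter factor for aOPC replicate 2 was 1.75, so promoter differences are relative to that scaling.

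The smallest adjusted p among promoters was 0.14, for Hspb6 (Hsp20), with 10 and 4 counts in aOPC against 30 and 41 in aOL, a log2 difference of 1.88 (SE 0.54) that ranged from 1.30 to 2.74 with 1 library left out and was 1.195 with library totals. Hspb7, a heart-enriched small heat shock protein with no RNA value here, had 18 and 48 counts in aOPC against 13 and 14 in aOL, a difference of −1.69 (SE 0.51, adjusted p = 0.18) that ranged from −2.21 to −0.93. Hspbp1 had 32 and 48 counts in aOPC against 86 and 135 in aOL, a difference of 1.03 (SE 0.40, adjusted p = 0.53). The Hspbp1 difference ranged from 0.82 to 1.27 with 1 library left out and from 0.53 to 1.41 in the other settings. The CPM of the groups did not overlap for any of these 3. Hspb6 RNA was at 7.38 and 8.88 in aOPC against 8.07 and 7.84 in aOL.

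Single sites gave 11 calls among the 451 chaperone sites that reached 10 reads in 2 or more libraries, 10 higher and 1 lower in aOL, beside 1.21% and 1.08% of the 443062 sites tested, 2.29% in all. At an unadjusted p under 0.05 there were 29 higher and 18 lower, beside 5.45% and 4.31%, 9.75% in all. All 11 reached that minimum only through the 2 libraries of the population in which they were high, with 0 to 5 counts in each library of the other. The median difference over the chaperone sites was 0.01. Without aOL replicate 2 or without aOL replicate 3 the other 10 no longer reached the read minimum, and only the lower site was called, beside 1.16% and 1.31% of all sites. Without aOPC replicate 3 there were 18 higher and 20 lower, beside 6.74%. Of the 200 sites with 10 reads in every library, which hold none of the 11, edgeR called 0, beside 0.286%. None of the 11 lies in a CpG island, and 9 of them had 1 count or none in each library of the other population.

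The sites are shown as 30 bases of GRCm38 on the strand that was read, with the CCGG in capitals, because on that strand each had few or no reads in 1 population, which did not hold for the other strand at several of them.
Hsp90ab1, site 1, chr17:45570322-45570351, minus strand: ctggaccagaaacCCGGatgacatcacgca
Hsp90ab1, site 2, chr17:45569760-45569789, plus strand: cgaagggagcccgCCGGggaatgaagagca
Dnaja2, chr8:85548811-85548840, minus strand: aacttaataagcaCCGGgcacttgctgata
Dnajb14, chr3:137894236-137894265, plus strand: aacttgctggggtCCGGgaatagaacaaag
Hsph1, chr5:149623363-149623392, minus strand: tttcgagagggatCCGGtgatcttatgggg
Dnajc27, site 1, chr12:4109427-4109456, minus strand: gagcccagtagctCCGGggttagagagaca
Dnajc27, site 2, chr12:4109025-4109054, plus strand: ctggcttcgtgatCCGGtacagacctctgc
Dnajc3, chr14:118952759-118952788, plus strand: ttttttaaaagccCCGGtcatctcattgcc
Dnajc7, chr11:100599172-100599201, minus strand: atgacagttttgtCCGGgtatgtaatggag
Dnajc16, chr4:141786563-141786592, plus strand: gagctgccttctgCCGGgcaaactttccat
Hspb7, chr4:141420921-141420950, plus strand: gacatcgtggaagCCGGagctaaggcacct

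Hsp90ab1 held 2 of the 11 sites, both in coding exons. Site 1, 2934 bases after the start, had 0 and 1 counts in aOPC against 116 and 162 in aOL (edgeR, adjusted p = 1.0e-05), a ratio of pooled counts per total of 157 with an exact 95% interval of 27.9 to 6213. The other strand of the same CCGG had 0, 0, 0 and 1 counts, so it was read from 1 side only. Site 2 had no count in aOPC against 19 and 47 in aOL (adjusted p = 0.0022), at least 4.91-fold higher against a floor of 3 counts per library. Its other strand had 76 and 133 counts in aOPC against 132 and 192 in aOL, so that the position was read in all 4 libraries. These intervals and floors cover counting error only.

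**Figure D5:**
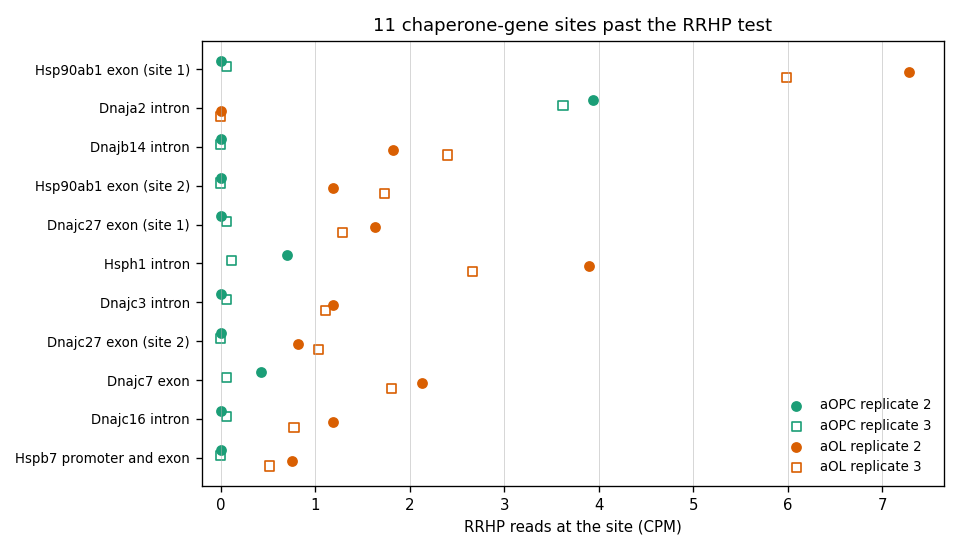
RRHP reads (x axis, CPM) at the 11 chaperone-gene sites that passed the edgeR test, in aOPC (green) and aOL (orange), circles for replicate 2 and open squares for replicate 3. Dnaja2 alone is higher in aOPC, and the other 10 sites have 0 to 5 counts in each aOPC library.

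The 1 lower site lay in an intron of Dnaja2, 6518 bases after the start, with 28 and 62 counts in aOPC and none in aOL (adjusted p = 2.2e-05), at least 25.3-fold lower against the same floor. The intron site of Dnajb14 went the other way, with no count in aOPC against 29 and 65 in aOL (adjusted p = 5.5e-04), at least 7.07-fold higher. For both, the other strand was listed in no library. The RNA of Dnajb14 also had both aOL values above both aOPC values, while that of Dnaja2 did too, opposite in sign to its site.

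Hsph1 held the called site with the most reads in the lower population, with 5 and 2 counts in aOPC against 62 and 72 in aOL (adjusted p = 0.0053), in an intron. Its log2 difference of 3.30 was 4.73 without aOPC replicate 2 and 1.91 without aOPC replicate 3, and was called in both fits. The other strand of that CCGG had 78 and 333 counts in aOPC against 254 and 364 in aOL, no such gap. Dnajc7, a co-chaperone with tetratricopeptide repeats, gave a like picture at a coding exon, with 3 and 1 counts in aOPC against 34 and 49 in aOL (adjusted p = 0.014) and 16, 77, 76 and 91 counts on the other strand. Its log2 difference ranged from 1.93 to 4.94 with 1 library left out, and the Dnajc7 call was lost in some of the other fits. Dnajc27 held 2 sites in the 3′ untranslated region, site 1 with 0 and 1 counts in aOPC against 26 and 35 in aOL (adjusted p = 0.0033) and site 2 with none in aOPC against 13 and 28 in aOL (adjusted p = 0.0088). At site 1 the other strand had 6, 17, 27 and 35 counts, and at site 2 it had 1, 0, 0 and 1. The call of site 1 was also lost in some of the other fits.

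The remaining calls were an intron site of Dnajc3 with 0 and 1 counts in aOPC against 19 and 30 in aOL (adjusted p = 0.0077), an intron site of Dnajc16 with 0 and 1 against 19 and 21 (adjusted p = 0.019), and a site in the promoter and 5′ untranslated region of Hspb7 with none against 12 and 14 (adjusted p = 0.045). Each of these calls was lost in some of the other fits. At the Hspb7 position the strands were opposite, since the other strand had 9 and 22 counts in aOPC and none in aOL. The Dnajc16 and Hspb7 sites lie within 1 stretch of chromosome 4 that ranks 8 of 532 bins of 5 Mb in the share of tested sites that were called with at most 3 counts in each library of the lower population, at 13.7%, and the Dnaja2 bin ranks 18, at 10.2%, where the median bin has 0.55%. The part of such stretches in these calls was not tested.

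RNA and gene-body 5hmC were also set side by side. Over the 60 genes with both values the Spearman correlation between the gene-body difference and the RNA difference was 0.10, a description over genes that share libraries, and 32 of 60 had the same sign. Over all 10388 genes with both it was 0.14, with 55.3% of the same sign. For promoters it was 0.09 over 55 chaperones and −0.03 over all 8901 genes with both values. Hspb8, with the widest RNA difference, had a gene-body signal of 6.61 and 6.60 CPM in aOPC against 7.91 and 8.28 CPM in aOL (log2 difference 0.28, SE 0.23, adjusted p = 0.79). Hspa8 had 3.80 and 0.818 CPM in aOPC against 0.879 and 1.40 CPM in aOL, with overlap. Hspa4l had 7.59 and 11.97 CPM in aOPC against 11.2 and 10.2 CPM in aOL, with overlap.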

How the data were processed

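RNA tables held log2 values that the authors had quantile-normalized per gene symbol after alignment with BWA to mm10 (the labels list DESeq2 1.2.5). How the gene list was chosen is not given in the sources used here, and log2 was taken from the range of values. RRHP tables held unnormalized counts for each CpG on each strand, deposited by the authors with promoter, exon, intron and island columns. Their aligner and filters are not given in the sources used here. Same-numbered libraries list the same sites, and a site listed in only 1 pair was given 0 counts in the other. RNA was tested with limma 3.58.1, and RRHP sites and summed regions with edgeR 4.0.16 quasi-likelihood F-tests (TMM on library totals), in R 4.3.3, p-values adjusted over all features. SE of edgeR values is the difference over the root of F. Strand use in RNA counting is not stated, so genes that overlap on opposite strands are uncertain. Exon lengths came from GENCODE M21. Scripts were tested on simulated data. Genes named with values were a fixed set of 30 by role plus those at an unadjusted p under 0.05 and those called or richest in RRHP reads. Members and lists were chosen with earlier results of these data known. Alternatives are given at the end.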

Additional observations from a re-analysis of the deposited data

How the results depend on the processing

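With 2 libraries a group, counts of calls ranged as follows when each was left out in turn. Chaperone genes called in RNA ranged from 0 to 9 higher and 0 to 9 lower in aOL (0 to 18 in all), and those at an unadjusted p under 0.05 from 0 to 25 higher and 1 to 18 lower. Called sites ranged from 0 to 18 higher and 1 to 20 lower (1 to 38 in all), gene bodies from 0 to 5 higher and 0 to 7 lower (0 to 12), and promoters from 0 to 3 higher and 0 to 1 lower (0 to 3). The highest totals of bodies and promoters came without aOPC replicate 3, where 22.6% of all bodies and 11% of all promoters were called. DESeq2 called 4 sites higher, 5 in all, beside 1.5% of all sites, with no adjusted p for 2 of the 11 edgeR calls. All 5 were among the 11, so DESeq2 did not call the rest of them. Requiring 10 reads in every library left 0 higher and 0 lower, and 0 in all, since none of the 11 sites passed it. A minimum of 5 reads gave 6 lower and 17 in all, and no filter gave 17 higher and 9 lower, 26 in all, beside 2.28% and 1.55% of all sites. Keeping sites with 3 reads in every library left 0 gene bodies called, Dnaja2 then having too few reads to test. No filter gave 1 promoter higher and 1 lower, 2 in all, beside 1.3% of all promoters. Replicate numbers pair no animals, and same-numbered deviations had a correlation of −0.07 (RNA) and −0.08 (RRHP sites). The fit with the replicate block called 1 chaperone gene lower in RNA, Hspb8 (adjusted p = 0.031), which was tested only through its aOPC values, 1 in all, beside 1.14% of all genes, and left 5 higher and 5 lower at an unadjusted p under 0.05, beside 8.98% and 9.17%. It changed no call among promoters or gene bodies, and called 12 sites higher and 1 lower, beside 2.94% of all sites. The cause of the other changes was not tested. The median RNA difference stayed between 0.06 and 0.21. Signs changed with 1 library left out for Hspa1a (−0.19 to 0.72), Hspa2 (−0.20 to 0.043), Hspa14 (−0.12 to 0.0092), Hsp90aa1 (−1.12 to 0.073), Dnaja3 (−0.42 to 0.28), Dnajb2 (−0.026 to 0.13), Dnajb9 (−0.60 to 0.24), Dnajc2 (−0.13 to 0.035), the gene bodies of Dnajc6 (−0.017 to 0.30) and Dnajc3 (−0.036 to 0.17) and the promoter of Dnajb2 (−0.41 to 0.15). The Hspb1 promoter gave −0.23 with library totals and −0.13 with sites of 3 reads in every library, where the Hsp90ab1 body gave −0.0095. The other chaperone values that were recomputed kept their sign, and partner genes were not recomputed. RNA differences that kept their sign moved by over 1.5 times with 1 library left out for Hspa1b (0.71 to 1.80), Hspa5 (0.15 to 0.55), Hspa13 (0.16 to 0.80), Hsp90ab1 (0.07 to 0.25), Hsp90b1 (0.33 to 0.91), Hspd1 (0.26 to 0.56), Dnaja1 (0.16 to 0.48), Dnajc6 (0.45 to 0.97), Dnajb14 (0.64 to 1.35) and Dnajc15 (−1.65 to −0.63), as did the gene bodies of Hspb6 (0.71 to 2.92), Dnajc12 (−0.59 to −0.24) and Hspa12a (−0.25 to −0.12). Hspb8 was not testable at the filter of 8.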
